A study of Nothobranchius furzeri with 12 samples.

Results

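The genes described here are the 150 whose RNA levels differed most between fish of the same group in the intestine of the killifish Nothobranchius furzeri. They were chosen by their measured values. Counts were scaled to the library total (CPM, counts per 1000000 counts of the library), and genes with a mean of at least 5 CPM over 11 libraries were ranked by the standard deviation (SD) of log2(CPM + 1) within groups, pooled over the groups. The 150 members are the top of the 10302 genes ranked this way, of 25475 genes in the count table. Their spread within groups is therefore the criterion of choice and is given as a description. The ranking did not use differences between group means, but the minimum of 5 CPM did depend on the level, so that a gene low in other groups could enter through a group in which it was high. A twelfth library was held out of the choice altogether.

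Intestines of wild-type male fish of the short-lived inbred strain GRZ were sequenced, 1 fish per library, with 4 libraries in each of 3 groups. The study calls them whole intestines, but its methods also speak of dissected small intestines. W10 fish were 10 weeks old (adult) and had been fed to excess. W20 AL fish were 20 weeks old (old age) and had been fed ad libitum throughout, with no treatment. W20 IF fish were 20 weeks old and had been on a diet restriction since week 10, in which they received food only every other day (intermittent fasting). All fish were kept singly, and no group carries a transgene. The 11 libraries that chose the members held 23226098 to 26986542 counts, and the remaining library, W20 IF replicate 4, only 1512262. Without any count, a gene may still have had up to 1.98 CPM in this shallow library but only 0.111 to 0.129 CPM in each deeper one (3 counts, for counting error alone). W20 IF replicate 4 took no part in the choice of members or in the main tests, and its values are given separately.

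A fish intestine is a mixed tissue. An absorptive epithelium with enterocytes, mucus-secreting goblet cells and hormone-secreting cells lies over connective tissue, immune cells, nerves and smooth muscle, and in many fishes pancreatic tissue lies along the gut. Animals of a group can differ in the proportions of these cells and in what each of them transcribes. In bulk RNA, fewer cells of a type and less RNA per cell cannot be told apart. The table identifies genes by Ensembl numbers only, 0 of which matched the gene names used here, so that lists of marker genes could not be applied and no member is assigned to a cell type or pathway. The members are described by their rank (1 for the largest spread) and by the fish in which they were high or low.

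The pooled SD of the members ranged from 0.64 to 2.94 on the log2(CPM + 1) scale with a median of 0.81, compared with a median of 0.14 over all ranked genes. At the limit of the choice, ranks 149 and 150 had SDs of 0.643 and 0.641, and the first genes left out had 0.640 and 0.635. The highest and the lowest fish of a group differed by a median of 5.49-fold in CPM + 1 in the group where this difference was largest, with a range of 2.82-fold to 99.2-fold. Members were not restricted to low levels. Their mean ran from 5.23 to 1059 CPM with a median of 23.1, beside 19.4 for all ranked genes, and 21 members were above 100 CPM. Counting error alone would give an SD of 0.12 or less for every member. As many as 27 members were below 1 CPM in a library and above 20 CPM in another, a pattern found in 30 of all ranked genes.

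**Figure D1:**
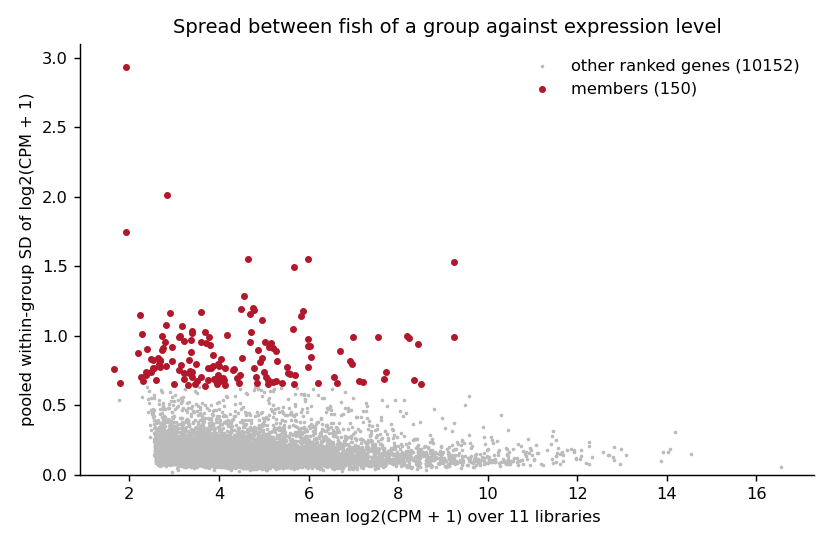
Each point is a gene, with its mean log2(CPM + 1) over the 11 libraries on the horizontal axis and its pooled within-group SD on the vertical axis. The 150 members (red) lie above an SD of 0.64 at levels from low to high, and the other 10152 ranked genes (grey) lie below it.

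The spread did not fall evenly on the fish. In W10, 87 members (58%) had their largest group SD, in W20 AL 41 (27.3%) and in W20 IF 22 (14.7%). Among all ranked genes these shares were 21.1%, 23.1% and 55.8%. W20 IF, with 3 libraries, had the smallest weight in the pooled SD that chose the members. The division of the members between groups was thus in part set by the choice. The median SD of the members was 0.94 in W10, 0.63 in W20 AL and 0.56 in W20 IF. The fish farthest from its group mean was W10 replicate 1 for 60 members, W20 AL replicate 4 for 33 and W10 replicate 3 for 26. W20 IF replicate 1 followed with 12, and W10 replicate 2 was the farthest fish for none of the 150. The first 3 of these fish took a larger part of the variation than over all genes. W10 replicate 1 held 23.8% of the members' within-group sum of squares and 14.8% of that of all ranked genes. For W20 AL replicate 4 the shares were 13.7% and 8.90%, and for W10 replicate 3 they were 13.4% and 8.16%. The reverse was the case for W20 IF replicate 1, with 10.6% and 15.2%, and W10 replicate 2 held 4.36% and 4.85%. A single fish held over 50% of the sum of squares in 58 members (38.7%), beside 8.91% of all ranked genes. The members were chosen by this same sum of squares, which 1 extreme fish can make large. The differences from all ranked genes were thus in part set by the choice. The farthest fish lay below its group mean in 101 members (67.3%, beside 50.2% of all ranked genes) and above it in 49. Members that vary together are not independent here, and 83 of the 101 came from the 3 fish W10 replicate 1, W20 AL replicate 4 and W10 replicate 3.

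**Figure D2:**
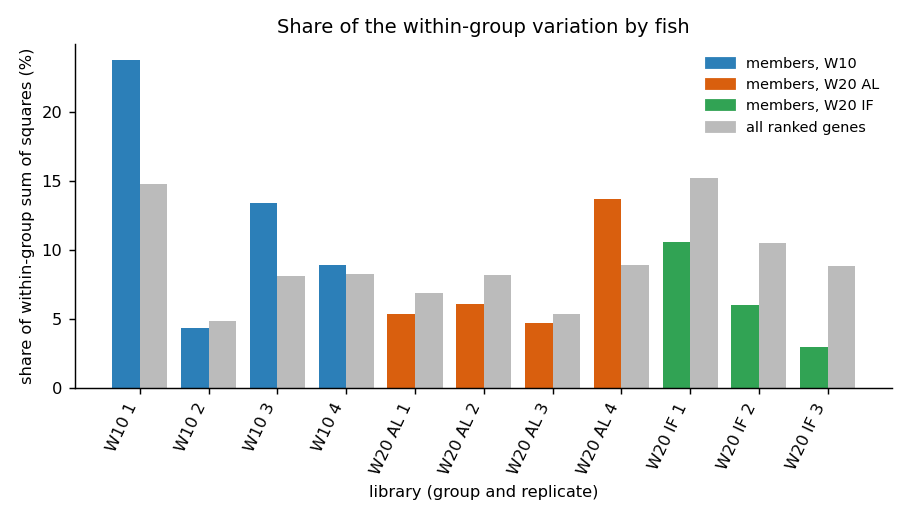
Bars give the share (%) of the within-group sum of squares of log2(CPM + 1) that each of the 11 libraries held, for the 150 members (coloured by group) and for all ranked genes (grey). W10 replicate 1 held 23.8% for the members, the highest bar, and W20 IF replicate 3 held 2.96%, the lowest.

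The largest spread of all came from a gene with only 2 levels. ENSNFUG00015012839 (rank 1) had 60.0 CPM in W10 replicate 1, 56.6 in W20 AL replicate 1 and 78.0 in W20 IF replicate 1, and between 0.201 and 0.374 CPM in the other 8 libraries. The held-out W20 IF replicate 4 also had it, at 54.9 CPM. Each group thus contained at least 1 fish at the high level and at least 2 at the low level, with nothing between them, and the group means did not pass the test in any comparison. The gene at rank 3 had 2 levels in other fish. It lay at 17.8 CPM in W10 replicate 3, 11.1 and 15.4 in W20 AL replicates 3 and 4, and 14.2 in W20 IF replicate 2, and at 0.513 to 0.990 CPM in the other 7. The held-out library, at 1.32 CPM (2 counts), was near its low level. A division into 2 levels, here a gap of at least 2 on the log2 scale with a range under 1 on either side of it, was found in 4 of the 10302 ranked genes. All 4 were members, which was in part set in advance, because such a gap within a group makes the pooled SD large. The remaining pair (ranks 66 and 92) were high in a single fish of W20 AL. At rank 66 this was replicate 3 with 25.2 CPM and at rank 92 replicate 1 with 25.7 CPM, beside 2.73 to 5.30 CPM in the other libraries of that group.

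ENSNFUG00015022953 (rank 2) was high in a single fish. It reached 225 CPM in W20 IF replicate 1, whereas replicates 2 and 3 had 1.28 and 2.41 CPM and the held-out replicate 4 had 1.98. The 4 W10 fish had 3.12, 8.97, 17.4 and 6.50 CPM, and the 4 W20 AL fish had 7.64, 0.646, 3.99 and 2.41. The groups overlapped, and the value of 225 CPM was the only one above 17.4.

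**Figure D3:**
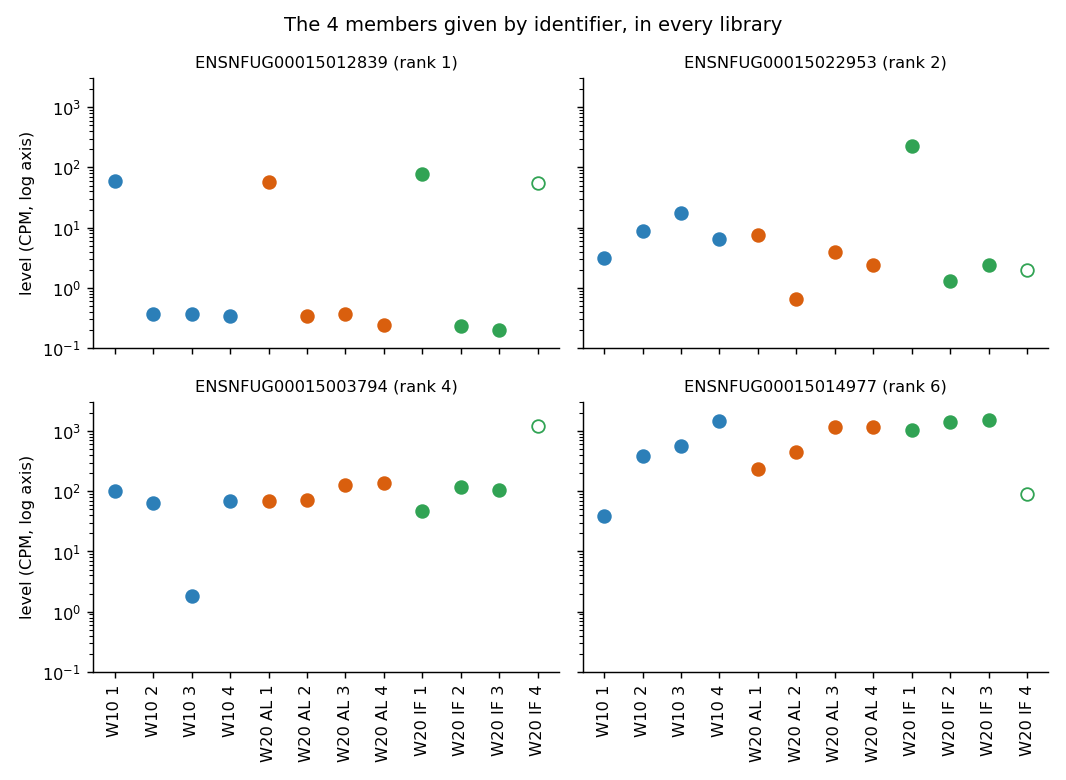
Levels in CPM (log axis) of the 4 members given by identifier, in each library of W10 (blue), W20 AL (orange) and W20 IF (green). The open circle is the held-out W20 IF replicate 4. The gene of rank 1 has 2 levels in every group, that of rank 2 has a single high fish (225 CPM), and those of ranks 4 and 6 have a low W10 fish (1.81 and 39.1 CPM).

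Most members varied together with others. When the members were clustered by the correlation of their deviations from the group means (average linkage, cut at a correlation of 0.5), 127 of the 150 fell into 6 clusters of at least 5 members, named A to F by size, and 23 into none. The points behind each correlation are the same 11 fish with 8 degrees of freedom, so that 1 or 2 fish could carry it. The deviation of 1 fish was common to nearly all members of each cluster. A, B and D had their largest spread in W10 (35 of 38, 25 of 27 and 20 of 21 members), C and E in W20 AL (25 of 26 and 7 of 8), and F in W20 IF (all 7).

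**Figure D4:**
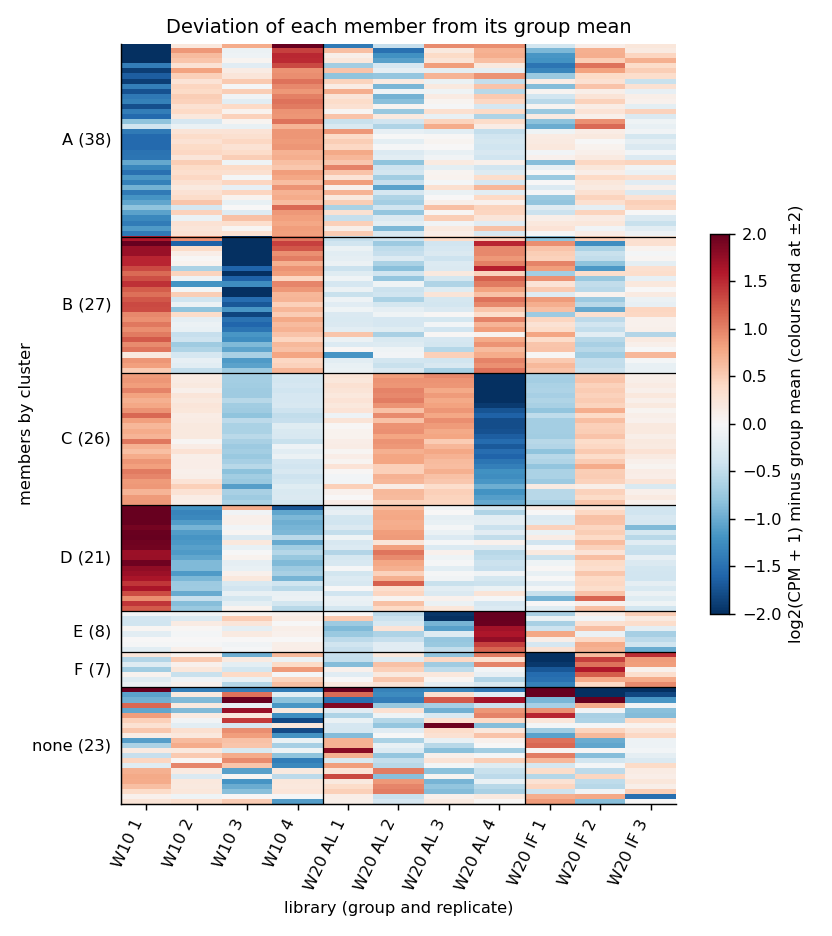
Rows are the 150 members ordered by cluster (number of members in brackets), columns are the 11 libraries, and the colour is log2(CPM + 1) minus the group mean, with colours ending at -2 and 2. Each cluster has a fish in which nearly all of its rows share a sign: W10 replicate 1 for A (low) and D (high), W10 replicate 3 for B, W20 AL replicate 4 for C (low) and E (high), and W20 IF replicate 1 for F.

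Cluster A held 38 members that were low in W10 replicate 1. All 38 had their lowest W10 value in that fish, and for 22 of them it was the lowest of the 11. All 38 had their highest W10 value in replicate 4. The mean log2(CPM + 1) of the cluster was 3.55 in replicate 1, 5.32 in replicate 2, 5.17 in replicate 3 and 5.93 in replicate 4. The W20 AL fish lay between 3.84 and 4.58 and the W20 IF fish between 5.21 and 5.92. The clearest case was ENSNFUG00015014977 (rank 6), which was also among the more abundant members. Its W10 values were 39.1, 387, 562 and 1462 CPM, a 36.5-fold range in CPM + 1 between 4 fish of the same age and diet. In W20 AL it had 229.9, 444, 1186 and 1175 CPM and in W20 IF 1022, 1433 and 1540 CPM, so that W20 IF lay within the range of the other groups or just above it. Correlations between members of A ran from 0.15 to 1.00, and their median of 0.74 was the lowest of the 6 clusters. Outside the 150, another 36 ranked genes followed its mean at a correlation of at least 0.9.

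Cluster D (21 members) deviated in the same fish in the opposite direction. All 21 members had their highest value of the 11 libraries in W10 replicate 1. Its mean log2(CPM + 1) was 5.94 there and 3.19, 4.15 and 3.46 in the other W10 fish, and it lay between 2.42 and 3.37 in W20 AL and between 2.99 and 3.80 in W20 IF. The member at rank 18 had 355 CPM in W10 replicate 1 and 25.5, 61.7 and 31.3 CPM in W10 replicates 2 to 4. In W20 AL it had 12.3, 24.2, 13.96 and 8.83 CPM and in W20 IF 28.9, 39.0 and 21.9 CPM. A single young fish thus stood apart from all 10 others. In the cluster mean the remaining W10 fish overlapped with both older groups. At rank 18 they lay above every W20 AL fish and overlapped with W20 IF only. Smaller differences were shared as well: all 21 members were above their group mean in W20 AL replicate 2 and in W20 IF replicate 2. The median correlation was 0.94, and most members were weakly expressed (median 9.86 CPM).

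Cluster B (27 members) was characterised by W10 replicate 3, in which the genes were almost absent. In that fish 23 of the 27 were below 1 CPM and 7 had no count, whereas in W10 replicates 1 and 4 none was below 1 CPM. Its mean log2(CPM + 1) was 3.45, 2.03, 0.53 and 2.99 in the 4 W10 fish. In W20 AL it was 3.56, 3.39, 3.55 and 4.63, with replicate 4 above the group mean for all 27 members. In W20 IF it was 5.25, 4.37 and 4.94, and 21 of the 27 members had their highest of the 11 values in this group. ENSNFUG00015003794 (rank 4) showed the low fish most clearly, with 103, 62.8, 1.81 and 70.2 CPM in W10. It had 68.9, 72.1, 125 and 137 CPM in W20 AL and 46.6, 117 and 103 CPM in W20 IF, so that apart from 1 fish the groups overlapped. The member at rank 13, also of B, had 6.87, 1.04, 0.0412 and 4.85 CPM in W10. In W20 AL it had 8.74, 6.29, 9.68 and 37.3 CPM, and in W20 IF 119, 29.3 and 82.9 CPM. W20 IF was above W10 without overlap, whereas the lowest W20 AL fish overlapped with W10 and the highest with W20 IF.

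Cluster C (26 members) was the tightest. Correlations between its members ran from 0.71 to 1.00 (median 0.97), and once the cluster mean was removed the median SD of a member fell from 0.84 to 0.18. Within a group its members thus kept nearly the same proportions to each other from fish to fish. Over all groups their sum changed 64.6-fold, from 0.0196% of all counts in W20 AL replicate 4 to 1.27% in W10 replicate 1. All 26 members had their highest value of the 11 in W10 replicate 1 and their lowest in W20 AL replicate 4. They were also the most abundant cluster (median 82.3 CPM). The member at rank 32 had the highest mean of all 150, with 2721, 1759, 949.7 and 1207 CPM in W10. It had 162, 242, 241 and 30.5 CPM in W20 AL, and 892, 1897 and 1546 CPM in W20 IF. W20 AL fish were thus lower than all others, and within each group the fish differed by several fold.

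Clusters E and F were small. All 8 members of E had their highest W20 AL value in replicate 4. For 5 of them W10 levels did not exceed 0.99 CPM in any fish. In W20 AL these 5 had 0.291 to 7.53 CPM in replicates 1 to 3 and 6.42 to 32.4 CPM in replicate 4, and in W20 IF replicates 1 to 3 they had 14.9 to 159 CPM. An old, fully fed fish was therefore intermediate between its own group and the fasted fish, and all 5 genes were lower in it than in each of the 3 fasted fish. The other 3 members had 7.66 to 40.02 CPM in W10 and 42.2 to 166 CPM in W20 AL replicate 4. Cluster F comprised 7 members that were lowest of all 11 fish in W20 IF replicate 1. At rank 17, for example, that fish had 8.01 CPM, beside 59.4 and 107.7 CPM in W20 IF replicates 2 and 3, 14.7 to 47.1 CPM in W10 and 78.8 to 286 CPM in W20 AL. Among the other ranked genes, 29 were correlated with the mean of F at 0.9 or above, and 106 moved in the opposite direction, at -0.9 or below. Within groups that mean deviated most in W20 IF replicate 1 (-1.76, beside 1.01 and 0.75 in replicates 2 and 3). These correlations thus rest largely on 1 fish, which held 15.2% of the sum of squares of all ranked genes.

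**Figure D5:**
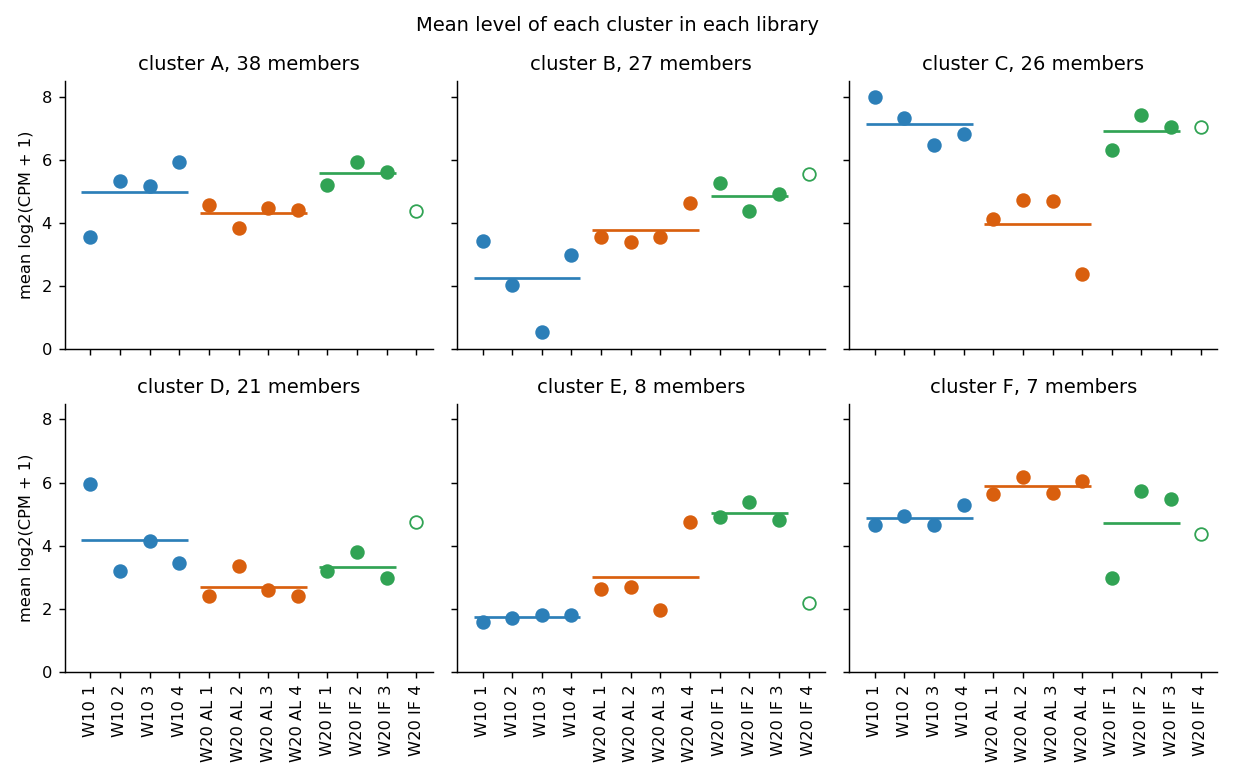
Mean log2(CPM + 1) over the members of each cluster in each library, for W10 (blue), W20 AL (orange) and W20 IF (green). Lines are group means over the 11 libraries, and the open circle is the held-out W20 IF replicate 4. Cluster C is low in all 4 W20 AL fish (2.39 to 4.73), and the held-out library is above its group in D (4.77) and below it in E (2.17). In E, 2 of the 8 members went the other way, above the range of W20 IF replicates 1 to 3.

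The library that took no part in the choice, W20 IF replicate 4, shows the clusters in a further fish. Of the 150 members, 36 lay above and 31 below the range of W20 IF replicates 1 to 3 by more than counting error (exact Poisson interval, 95%), together 44.7% compared with 16.8% of all ranked genes. For all ranked genes these were 3.96% above and 12.8% below. The members were chosen for a large spread, so that a larger share beyond counting error was in part set by the choice. Without the condition on counting error the order was reversed. By that count 61.3% of the members lay outside the range, beside 73.2% of all ranked genes. In cluster D, 17 of 21 members lay above the range beyond counting error and none below, and 20 of 21 were higher than in each of the 10 fish other than W10 replicate 1. In cluster A, 22 of 38 lay below the range and 2 above. Against its own group the held-out fish thus had low A and high D, as W10 replicate 1 had, although it belongs to another age and diet. Its mean log2(CPM + 1) for A was 4.37, above the 3.55 of W10 replicate 1. That value lay within the 3.84 to 4.58 of the W20 AL fish, so a low A was not particular to these 2 fish. For D the mean of the held-out fish was 4.77, and at rank 18 it had 122 CPM. In cluster B, 12 of 27 members were above the range and 3 below, and ENSNFUG00015003794 reached 1227 CPM in this library against at most 137 CPM in the other 11. In cluster C only 1 of 26 was outside the range beyond counting error, and in F none of 7. In cluster E the members divided, with 5 of 8 below the range beyond counting error and 2 above. The 5 members of E that were high in the other fasted fish had 0 to 3 counts in the held-out library, which corresponds to 0 to 1.98 CPM. In these genes the library labelled W20 IF replicate 4 did not have the level of its group. Ranked genes called between W20 IF and W10 without this library were chosen by the difference between those group means. Their position in it is therefore given only as a description. Of the 56 called higher in W20 IF, 30 were nearer to the W10 mean in this library and 26 to that of W20 IF, and 11 lay within the W10 range. Of the 21 called lower, 8 were nearer to W10 and 13 to W20 IF. Its depth moves with these differences and their relation was not tested.

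The comparisons between the groups ask whether the members also differed with age and diet. The ranking by within-group spread did not use these differences, but the minimum of 5 CPM did in part, and the calls this concerns are given with each comparison. All 150 were tested in a model of all 18277 genes that passed the filter on low counts, over the 11 libraries (edgeR's quasi-likelihood test, Benjamini-Hochberg adjustment over all genes). Calls required an adjusted p under 0.05 together with a log2 fold change of more than 1 in either direction. The standard errors of these tests rest on the within-group spread, by which the members were chosen. For W20 AL against W10 their median was 0.64 for the members and 0.15 for all genes tested. A member that was not called may therefore have missed the limit in part through the choice.

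Between W20 AL and W10, 23 of the 150 members were called and all 23 were lower in the old fish. All of them belonged to cluster C, of whose 26 members they were 23, and no member of another cluster passed. Of all genes tested 0.93% were called, 0.465% higher and 0.465% lower. The called members of C fell by between 2.64 and 4.25 on the log2 scale with standard errors of 0.47 to 0.67 and adjusted p of 0.017 to 0.048. At rank 83, the member with the largest fall, W10 fish had 86.9, 53.6, 33.0 and 37.1 CPM (52.6 ± 24.5, SD, n = 4) and W20 AL fish had 3.003, 3.57, 4.07 and 0.281 CPM (2.73 ± 1.69, n = 4). The groups did not overlap, and the call was lost only without W20 AL replicate 2 (edgeR adjusted p of 0.053). For 25 of the 26 members every W20 AL fish was lower than every W10 fish and every W20 IF fish of replicates 1 to 3, which was the case for 5.26% of all ranked genes. The members of C varied together (median correlation 0.97), so that counts of them, here and below, are not independent results. The number of members of C called dropped in most models that left out a single library. Without W10 replicates 1, 2, 3 and 4 it was 14, 3, 7 and 9 in turn, and without W20 AL replicates 1, 2 and 3 it was 2, 2 and 4. It was 12 when W20 IF replicate 3 was missing, and the edgeR adjusted p of the 23 reached at most 0.11 in any of these models. Calls over all genes moved as well, from 170 in the main model to 284, 71, 64 and 112 without W10 replicates 1 to 4. They were 151, 65 and 93 without W20 AL replicates 1 to 3, and 139 without W20 IF replicate 3. All 21 members of D and 33 of 38 of A also had negative log2 fold changes (medians of -2.22 and -1.08, beside -0.01 over all genes). All 8 of E and 26 of 27 of B had positive ones, but none of these passed in the main edgeR model. Without W10 replicate 1, edgeR called 30 members lower (284 of all 18168 genes tested in either direction). Of these, 14 belonged to C and 1 to D, and the rest lay outside both clusters. It called 2 of E higher without W20 AL replicate 4. With a replicate block it called only 3 of C lower, and 3 of E and 1 of B higher. DESeq2 called 14 of D and 25 of C lower and 5 of E and 2 of B higher.

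Between W20 IF and W20 AL, which differ in diet at the same age, 40 members were called, 39 higher and 1 lower in the fasted fish. Of all genes tested 3.34% were called, 2.63% higher and 0.711% lower. The 39 comprised all 26 members of C, 10 of A and 3 of E. All 3 of E and 1 of A were below 5 CPM on average outside W20 IF and were thus members only through the group in which they were high. Members of C rose by 1.76 to 3.47 on the log2 scale (standard errors 0.49 to 0.69, adjusted p 0.0089 to 0.045), and 23 of them were also the ones lower in W20 AL than in W10. At rank 83 the W20 IF fish had 15.3, 46.3 and 28.4 CPM (30.0 ± 15.6, n = 3), above all W20 AL fish and overlapping with W10. Leaving out W20 AL replicate 1 reduced the count for C to 14, and leaving out W20 IF replicate 2 reduced it to 9. With the shallow W20 IF replicate 4 included it was 26, and with a replicate block it was 19. Over all genes these models called 612, 456, 559 and 516 in turn, beside 611 in the main model.

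The 10 members of A that rose with fasting were among the less variable of their cluster (ranks from 114 to 148), with log2 fold changes of 1.72 to 2.03 and adjusted p of 0.025 to 0.049. At rank 146 the W20 AL fish had 25.4, 15.5, 17.03 and 15.2 CPM (18.3 ± 4.79, n = 4) and the W20 IF fish 80.0, 81.2 and 50.4 CPM (70.5 ± 17.5, n = 3), without overlap. W10 fish had 12.7, 43.2, 44.3 and 61.0 CPM and overlapped with both. The held-out W20 IF replicate 4 had 35.7 CPM, below its group and above W20 AL. With a replicate block in the model, no member of A was called higher. None of the 10 was called when any of W20 AL replicates 2, 3 or 4 or W20 IF replicates 1 or 2 was left out, 1 without W20 IF replicate 3, 2 without W10 replicate 2 or 3, and with W10 replicate 1 left out 18 members of A were called. Calls over all genes in these models lay between 430 and 651, beside 611 in the main model.

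Between W20 IF and W10, which differ in age and diet, 16 members were called, 15 higher and 1 lower in the old fasted fish. Of all genes tested 1.93% were called, 1.66% higher and 0.268% lower. No member of C passed in this comparison, and its log2 fold changes lay between -0.78 and 0.39. The 15 comprised 9 of B, 5 of E and 1 unclustered member. Of these, 3 of B (ranks 98, 110 and 130) and 4 of E (ranks 19, 69, 94 and 138) were below 5 CPM on average outside W20 IF and became members only through that group, so that their direction was in part set by the choice. In B they rose by 2.84 to 4.59 on the log2 scale (standard errors 0.58 to 1.04, adjusted p 0.019 to 0.049). At rank 130, the member of B with the lowest adjusted p, W10 fish had 1.42, 0.222, 0.0412 and 1.69 CPM (0.844 ± 0.833, n = 4) and W20 IF fish 24.3, 11.6 and 14.2 CPM (16.7 ± 6.69, n = 3). The W20 AL fish had 4.09, 3.57, 2.58 and 10.9 CPM, between the other groups and overlapping with neither. The held-out W20 IF replicate 4 had 6.61 CPM, and the call was lost without W10 replicate 2 or W20 IF replicate 1 (edgeR adjusted p up to 0.060). The count for B was 0 without W10 replicate 2 or W20 IF replicate 1, 1 without W10 replicate 4 or W20 IF replicate 3, and 3 without W20 AL replicate 1, 2 or 3 or W20 IF replicate 2. Calls over all genes in these models lay between 227 and 329, beside 353 in the main model.

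The 5 called members of E were those almost without counts in W10. Ranks 69 and 94, given next, became members only through W20 IF. Their higher level in that group was thus in part set by the choice, and their tests are no independent support for it. At rank 69 the W10 fish had 0.158, 0.148, 0 and 0.225 CPM, the W20 AL fish 1.40, 4.35, 1.08 and 13.2 CPM, and the W20 IF fish 77.4, 159 and 91.1 CPM. No value of one group reached that of another, and the log2 fold change of W20 IF against W10 was 9.61 with a standard error of 1.12 and an adjusted p of 0.0031 (edgeR). Against W20 AL it was 4.44 with a standard error of 0.76 and an adjusted p of 0.0077, and both calls held with any of the 11 libraries left out. The member at rank 94 had no count in any W10 fish and 23.8, 29.3 and 14.9 CPM in W20 IF, at least 183-fold higher in the mean when the W10 level is set to 3 counts per library. Its call (edgeR adjusted p of 0.046) was kept only when W20 AL replicate 4 was left out and lost, at up to 0.107, without any other of the 11. In the held-out W20 IF replicate 4, however, rank 69 had 1.32 CPM (2 counts), within the range of the W20 AL fish. Rank 94 had no count there. At this depth that allows up to 1.98 CPM, so it was below the other W20 IF fish but cannot be placed below W20 AL. The count of called members of E was 4 with all 12 libraries in the model and 3 without W10 replicate 2. Against W20 AL, where 3 were called, it was 5 without W20 AL replicate 4, 2 with all 12 libraries and 1 when only the 2 groups compared were fitted. Over all genes these models called 300 and 227 against W10 (353 in the main model). Against W20 AL they called 495, 559 and 600 (611 in the main model).

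Of the 23 unclustered members 2 were called. The member at rank 103 was lower in W20 IF, with 1.56, 2.17 and 3.25 CPM (2.33 ± 0.856, n = 3), than in W10 with 12.2, 29.9, 22.0 and 5.45 CPM and than in W20 AL with 20.6, 7.19, 10.8 and 9.23 CPM. It fell by 2.88 on the log2 scale against W10 and by 2.36 against W20 AL (standard errors 0.67, edgeR adjusted p 0.046 and 0.047), and the fasted fish did not overlap with the others. The first of these calls was kept only without W10 replicate 4 or W20 AL replicate 1, and the second only without W10 replicate 2 or 4, with edgeR adjusted p of up to 0.137 when any other library was missing. The member at rank 25 was higher in W20 IF, with 113, 56.9 and 32.8 CPM, than in W10, with 0.237, 0.371, 7.38 and 1.92 CPM, by 4.76 on the log2 scale (standard error 0.97, edgeR adjusted p 0.030). It had 8.89, 13.4, 4.94 and 20.4 CPM in W20 AL, and 1.32 CPM in the held-out W20 IF replicate 4, again near W10. Its call was lost without W10 replicate 1, 2 or 4 or without W20 IF replicate 1 or 2 (edgeR adjusted p up to 0.084).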

How the data were processed

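The authors prepared directional poly(A) libraries from the intestines and read 75 bp from both ends of each fragment. They used Trimmomatic for trimming, STAR for alignment (genome Nfu_20140520) and featureCounts for counting on Ensembl release 108 genes. Program versions are not given in the sources used here. The authors deposited whole-number counts per gene, without normalization or pooling. How multi-mapping reads were treated is not stated, so counts of near-identical copies are uncertain.

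From these counts, CPM relative to the library total, log2(CPM + 1) and the pooled within-group SD were computed with Python 3.11.15. Clusters were made by average linkage on 1 minus Pearson's correlation of group-centred values, cut at a height of 0.5. The groups were compared with edgeR 4.0.16 in R 4.3.3 (TMM, filterByExpr with a minimum count of 10 and a minimum total of 15, robust quasi-likelihood fit with 1 mean per group, Benjamini-Hochberg adjustment over 18277 genes). The script was tested on simulated data. W20 IF replicate 4 was left out of the choice and of the main model because of its depth. The study's methods describe the removal of an IF sample by quality and other sample numbers than the 4 per group used here. Alternatives were DESeq2 1.42.0, other scalings, filters, pseudocounts, spread measures and linkages, all 12 libraries, a replicate block and each library left out in turn. No pair of the 18 within groups had identical counts (chi-square per degree of freedom of at least 9.41). The members and the gene lists were chosen with earlier results of these data known. Identifiers are given for the 2 members with the largest SD whose farthest fish lay above its group mean and the 2 whose farthest fish lay below it.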

Additional observations from a re-analysis of the deposited data

Results flagged for a closer look

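In 8 of the 39 sets of 4 libraries examined, a library lay farther from the other 3 than Dixon's limit for 4 samples allows. Chance exceeds this limit in about 1 of 20 sets, but no comparison with that rate is possible here, because the members and their clusters were chosen for large differences within groups. W20 IF replicate 4 was included in its group here. Its total of 1512262 counts and its 17059 detected genes lay below the 24937470 to 25774912 counts and 22563 to 22701 genes of the others in its group.

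ENSNFUG00015012839 had a log2(CPM + 1) of 5.93 in W10 replicate 1 (others 0.42 to 0.46) and of 5.85 in W20 AL replicate 1 (others 0.31 to 0.46). ENSNFUG00015022953 had 7.82 in W20 IF replicate 1, beside 1.19 to 1.77 in the other W20 IF fish. ENSNFUG00015003794 had 1.49 in W10 replicate 3, beside 5.99 to 6.70. ENSNFUG00015014977 had 6.53 in W20 IF replicate 4, beside 10.00 to 10.59. The mean of cluster B was 4.63 in W20 AL replicate 4, beside 3.39 to 3.56 in the rest of that group.

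In the library that the comparisons do not use, W20 IF replicate 4, the mean of cluster B was 5.54, above the 0.53 to 4.63 of all W10 and W20 AL fish.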

How the results depend on the processing

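The members called depended on the model, and the cause was not tested. For W20 AL against W10 (23 called) the number was 51 with DESeq2, 15 with no filter on low counts and 8 with a replicate block. Over all genes these called 306, 150 and 124, beside 170 in the main model. For W20 IF against W10 (16) the number of members was 8 with no filter and 6 when only the 2 groups compared were fitted. Over all genes these called 389 and 273, beside 353. For W20 IF against W20 AL (40) no such alternative moved the number of members by over 1.5 times. Omitting single libraries gave 2 to 30, 3 to 15 and 11 to 47 member calls for these 3 comparisons in this order. Calls over all genes then ranged from 64 to 284, 227 to 349 and 430 to 651. Whether the replicate numbers pair the fish was not settled. Correlations of same-numbered libraries over all genes tested lay between -0.15 and 0.098, and those of differently numbered ones between -0.14 and 0.22. A pairing that touches few genes would not show in them. The replicate block left 14 member calls between W20 IF and W10 and 28 between W20 IF and W20 AL (330 and 516 over all genes). Of the 150 members, 97 remained with the median absolute deviation as the measure of spread and 81 with a minimum mean of 20 CPM, and with each library left out 110 to 146 remained. Members in clusters ranged from 131 to 144 with each library left out. Under every alternative for the clusters at least 25 of the 26 members of C stayed in 1 cluster. A kept only 18 of 38 together without W10 replicate 1, 16 with complete linkage and 22 with Spearman's correlation or a cutting height of 0.3. E kept 3 of 8 without W20 AL replicate 4 and 5 with Spearman's correlation, and F kept 2 of 7 without W20 IF replicate 1 and 3 with Spearman's correlation. Depth limits the reading of W20 IF replicate 4 below about 1.98 CPM.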
